A study of Mus musculus with 1 sample.

Results

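Described here are 10 tubulin genes, of the 27998 genes listed in the count matrix of 1 mouse testis library, 5 for α-tubulin (Tuba3a, Tuba3b, Tuba1a, Tuba1b and Tuba1c) and 5 for β-tubulin (Tubb4b, Tubb5, Tubb2a, Tubb2b and Tubb3), and were found by symbol. They were chosen by their measured levels in an earlier analysis of the same cells, in which germ and somatic cells used different members, so every difference between cell classes below is a description and was not tested. Each of the 10 had at least 100 unique molecular identifiers (UMIs, 1 per captured mRNA molecule) in the cells kept, as had 9073 of all genes. Because molecules rather than read lengths were counted at the 3′ end, levels of different genes were compared without division by length.

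Microtubules are hollow polymers of α-tubulin and β-tubulin heterodimers, and the mouse genome encodes each subunit in several genes. The encoded isoforms, called isotypes, are nearly alike over most of their length and differ chiefly at the C-terminal tail, an acidic stretch on the microtubule surface where polyglutamylation and other tubulin modifications are placed. In the testis, microtubules build the mitotic and meiotic spindles of germ cells, the manchette and flagellum of spermatids, and the apical transport tracks of Sertoli cells, the somatic cells that enclose and nourish the germ cells.

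The cells came from wild-type C57BL/6 mice at postnatal day 8. Testis cells selected with magnetic beads for THY1, a surface protein of undifferentiated spermatogonia, were pooled in equal numbers from 3 mice and mixed with some unselected testis cells, so that the proportions of cell types are those of this mixture. They gave 1 single-cell library, with no replicate, and Zscan2 knockout cells were not analysed here. The 95% intervals given below, exact throughout, count only sampling of molecules or cells and say nothing of variation between mice.

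After filtering, 920 of 970 barcodes remained, 324 germ cells and 596 somatic cells, which fell into 9 classes by clustering and markers. The germ cells were 112 spermatogonial stem cell (SSC)-like, 101 early differentiating-like and 32 late differentiating-like cells and a cluster of 79 cells without a cell type name. The leading genes of that cluster by fold were Hba-a1 and Hbb-bs, which encode hemoglobin, followed by Neurog3, a transcription factor of progenitor spermatogonia, and it is called the Neurog3 cluster. Its red blood cell markers summed to 10243 UMIs, or 7083 CPM (UMIs per 1000000 UMIs of the class), against 78.8 to 106 CPM in the other germ cell classes. One barcode held 3604 of its Hba-a1 UMIs, with 3 UMIs of the 10 tubulin genes. Without that barcode the red blood cell markers were at 98.3 CPM (82.8 to 116). In the Neurog3 cluster, 7 progenitor markers summed to 726.7 CPM. The same markers had 433.9 CPM in SSC-like, 417.5 CPM in early and 61.55 CPM in late differentiating-like cells. Among somatic cells there were 255 Sertoli-like cells, 186 stromal-like cells, 94 like peritubular myoid cells and 35 like macrophages, and a cluster of 26 cells led by Xcl1 and Rgs5 that was left unnamed. The median depth per cell was 18216.5 UMIs in germ cells and 8193.5 UMIs in somatic cells. Marker levels separated both kinds of cells, as clustering would have them do: the 6 germ cell markers, Ddx4, Dazl, Zbtb16, Sohlh1, Taf4b and Tdrd1, were in somatic cells at 1.86% to 9.78% of their germ cell level, and the 7 Sertoli cell markers were in germ cells at 0.670% to 1.50% of their Sertoli-like level. One germ cell cluster, of 62 cells, was shallow, with a median of 3905 UMIs, and 51 of its cells were in the early differentiating-like class.

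The ends of the coding sequences are shown first, since it is in these tails that isotypes are told apart. Each line holds the last 60 coding bases before the stop codon from the GENCODE transcript of that gene, written 5′ to 3′ on the coding strand, with the codons for glutamate (GAA or GAG), the residue to which glutamate and glycine chains are attached, in capitals.
Tuba3a: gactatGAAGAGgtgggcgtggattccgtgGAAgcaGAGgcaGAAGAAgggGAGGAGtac
Tubb4b: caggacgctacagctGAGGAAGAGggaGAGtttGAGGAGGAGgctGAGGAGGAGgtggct
Tubb5: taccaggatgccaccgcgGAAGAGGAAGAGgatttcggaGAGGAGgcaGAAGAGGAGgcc
Tubb2a: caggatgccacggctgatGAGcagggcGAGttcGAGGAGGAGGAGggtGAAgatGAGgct
Tubb3: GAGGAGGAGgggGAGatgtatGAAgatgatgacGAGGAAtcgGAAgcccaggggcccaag
The end of Tuba3b differed from that of Tuba3a at 0 of 60 bases, and that of Tubb2b from Tubb2a at 3 bases. Glutamate codons made up 10 of the 20 codons at the end of Tubb4b, 9 in Tubb5, and 8 in both Tuba3 genes and in Tubb2a, Tubb2b and Tubb3. The Tuba3a end closes with a codon for tyrosine, the residue removed and re-added in the detyrosination cycle, and the β-tubulin ends shown do not.

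Over the whole coding sequence of 1353 bases, Tuba3a and Tuba3b differed at 41 bases and were 96.97% identical. Tuba1a and Tuba1b were 98.30% identical over 1356 bases, and Tubb2a and Tubb2b 96.49% identical over 1338 bases, whereas Tubb4b and Tubb2a were 83.56% identical. Reads were counted from the 3′ end, so the last 500 bases of each transcript were searched for stretches of 50 bases that also occur in transcripts of another gene. Of 451 such stretches, 164 in Tuba3a and 201 in Tuba3b were shared, 254 in Tuba1a, 287 in Tuba1b, 308 in Tuba1c, 159 in Tubb4b and 191 in Tubb2a. Tubb5, Tubb2b and Tubb3 shared 0 of 451. Reads lying wholly within shared sequence cannot be assigned to 1 gene, and how many did so was not examined. The levels of the genes with shared stretches are thus uncertain. So are their shares beside Tubb5, Tubb2b and Tubb3. The split between Tuba3a and Tuba3b, and among Tuba1a, Tuba1b and Tuba1c, is uncertain too. Sums over these groups are given beside the single genes, but a sum does not restore reads left out of the counts. Some stretches also occur outside these groups, as in Gm5366 for the Tuba3 genes and Gm17383 for the Tuba1 genes.

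In GRCm38, both Tuba3 genes lie on chromosome 6, Tuba3a (ENSMUSG00000067702) at chr6:125278274-125286042 on the minus strand and Tuba3b (ENSMUSG00000067338) at chr6:145615757-145621479 on the plus strand. The Tuba1 genes lie together on chromosome 15, Tuba1b (ENSMUSG00000023004) at chr15:98931425-98934565 and Tuba1a (ENSMUSG00000072235) at chr15:98949837-98953703 on the minus strand, and Tuba1c (ENSMUSG00000043091) at chr15:99029891-99038110 on the plus strand. Tubb2a (ENSMUSG00000058672) and Tubb2b (ENSMUSG00000045136) are neighbours on the minus strand of chromosome 13, at chr13:34074274-34078007 and chr13:34126748-34130466. Tubb4b (ENSMUSG00000036752) lies at chr2:25222160-25224702 and Tubb5 (ENSMUSG00000001525) at chr17:35833921-35838306, both on the minus strand, and Tubb3 (ENSMUSG00000062380) at chr8:123411424-123422015 on the plus strand. Tuba3a overlaps 4930417O13Rik and Tubb4b overlaps Fam166a on the other strand, as does Tuba1b Gm41396, while Tuba1a and Tuba1b overlap Gm49450, and Tubb3 overlaps Gm20388, on the same strand.

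Summed over classes, the CPM of the 10 genes was nearly the same in germ and somatic cells, but its make-up was not. By class it ran from 1757 to 3490 CPM in germ cells and from 1920 to 3143 CPM in somatic cells. Germ cells held 15705 tubulin UMIs, or 2827 CPM (interval 2783 to 2872), and somatic cells 15245, or 2845 CPM (2800 to 2890), a log2 ratio of −0.01. Within these totals, Tuba3a, Tuba3b, Tubb4b and Tubb5 together carried most of the germ cell UMIs, and Tuba1a, Tuba1b and Tubb5 most of the somatic ones. At least 2-fold higher in germ cells were 3 of the 10 genes, against 23.6% of all genes with at least 100 UMIs, and at least 2-fold lower were 6 of 10, against 24.6%. The remaining gene was Tubb5. With a limit of 5% rather than 10% on mitochondrial UMIs, Tuba1c came just within 2-fold and the count of lower genes was 5. That limit left 67 germ cells, with a median depth of 5316 UMIs. With germ cells taken as those with a Ddx4 or Dazl UMI, the count of lower genes was 6, and the log2 ratios were −2.69 for Tuba1a, −1.61 for Tuba1b, −1.11 for Tuba1c, −1.36 for Tubb2a, −2.10 for Tubb2b and −2.59 for Tubb3. The median log2 ratio of germ over somatic cells was −2.36 over the 10 genes and 0.12 over the 9057 genes with UMIs in both groups of cells. The genes were chosen for this contrast, so these counts carry no further weight.

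**Figure D1:**
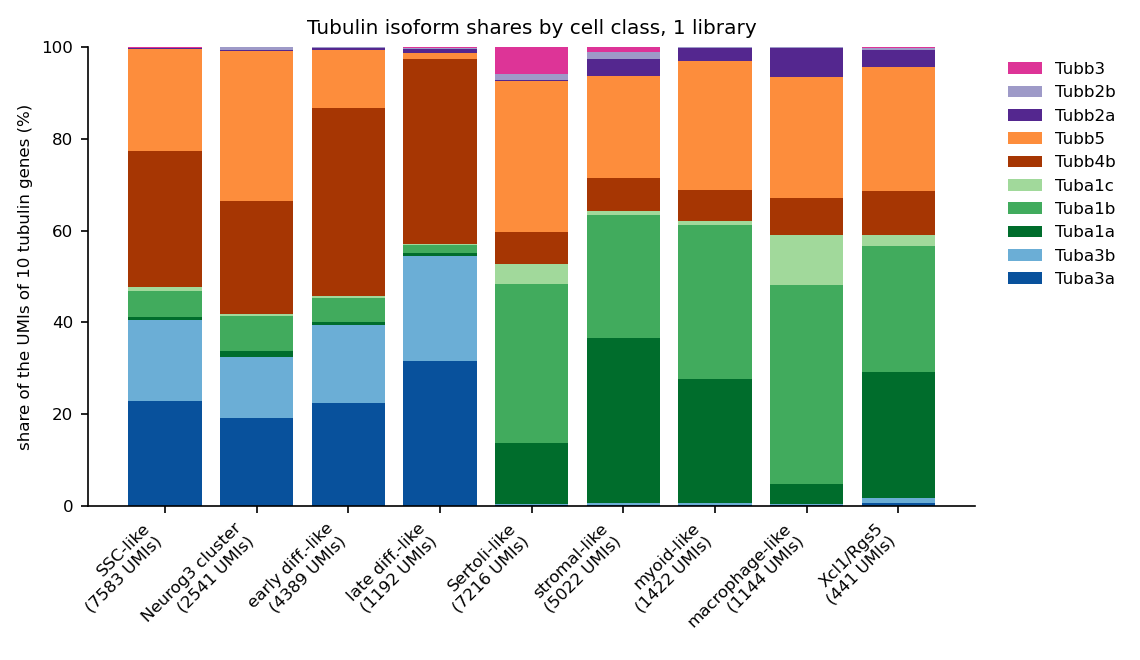
Share (%) of the summed UMIs of 10 tubulin genes held by each gene, stacked, in the 4 germ cell and 5 somatic cell classes of 1 library; the number of tubulin UMIs is under each bar. Tuba3a and Tuba3b (blue) fill 32.5% to 54.4% of the bar in germ cell classes and at most 1.81% in somatic classes, where the Tuba1 genes (green) take their place.

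Tuba3a and Tuba3b encode the α-tubulin of the male germline, known for high expression in testis. Tuba3a had 1736 UMIs in SSC-like, 487 in the Neurog3 cluster, 990 in early differentiating-like and 378 in late differentiating-like cells, against 18 in Sertoli-like, 17 in stromal-like, 5 in peritubular myoid-like and 2 in macrophage-like cells and 3 in the Xcl1 and Rgs5 cluster. The germ cell levels of Tuba3a were 710 CPM (677 to 744), 337 CPM (307 to 368), 787 CPM (739 to 838) and 931 CPM (839 to 1029) in that order. Every germ cell class therefore stood above every somatic class, of which the highest, the Xcl1 and Rgs5 cluster, had 18.2 CPM (3.75 to 53.1).

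Tuba3b followed the same order at a lower level. It reached 548 CPM (519 to 578) in SSC-like, 235 CPM (211 to 261) in the Neurog3 cluster, 587 CPM (545 to 631) in early differentiating-like and 667 CPM (590 to 752) in late differentiating-like cells. In somatic classes Tuba3b ranged from 5.40 CPM in peritubular myoid-like cells to 30.3 CPM in the Xcl1 and Rgs5 cluster, on 3 to 22 UMIs per class. For both genes the intervals of the levels in SSC-like cells and the Neurog3 cluster did not overlap, and those of the SSC-like and early differentiating-like levels did.

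Together, Tuba3a and Tuba3b made up 40.0% (39.2 to 40.8) of the tubulin UMIs of germ cells and 0.597% (0.481 to 0.732) of those of somatic cells. Among α-tubulin UMIs, their share was 85.1% in germ cells and 1.03% in somatic cells. The log2 ratio of germ over somatic CPM was 6.27 (5.84 to 6.72) for Tuba3a and 5.82 (5.40 to 6.27) for Tuba3b. In all somatic cells, Tuba3a stood at 1.30% and Tuba3b at 1.77% of the germ cell level, below each of the 6 germ cell markers, whose median was 2.41%. A somatic level above what germ cell markers show was thus not detectable. A UMI of Tuba3a was in 97.8% of germ cells and 6.71% of somatic cells. With cells of at least 5000 UMIs thinned to 5000 UMIs, and shallower cells left out, these shares were 90.3% and 2.92%.

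RefSeq start sites (GRCm38.p6) gave promoters for 9 of the 10 genes. That of Tuba3a is shown because both Tuba3 genes had nearly parallel levels over the 9 classes. The line holds the 150 bases before the start site, 5′ to 3′ on the strand of the gene, with CCAAT boxes, searched as CCAAT or ATTGG on either strand, in capitals.
Tuba3a, chr6:125286082-125286231, minus strand: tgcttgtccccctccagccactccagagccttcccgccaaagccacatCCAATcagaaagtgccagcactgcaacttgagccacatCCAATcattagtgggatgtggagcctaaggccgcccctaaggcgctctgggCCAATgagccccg
Tuba3a has 3 CCAAT boxes here, at 102, 64 and 13 bases before the start, and Tuba3b, whose RefSeq start site lies inside the first exon of its GENCODE transcript, has 2, at 89 and 51 bases, so that the first and second box are 38 bases apart in both genes. A CCAAT box was in 37.4% of all 32851 RefSeq promoters of 300 bases and in 7 of the 9 tubulin promoters. The letters TGCGCA, the core of the NRF1 motif, occurred in the promoter of Tuba3b and in none of the other 8, and in 7.76% of all promoters. A match of letters is a description and not a binding site.

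By Pearson correlation of log2(CPM + 1) over the 9 classes, the genes most like Tuba3a were Wdr77 (r = 0.99), Cacybp (r = 0.99) and Tuba3b (r = 0.99), and the genes most like Tuba3b were Dis3 (r = 0.99), Tuba3a (r = 0.99) and Coq7 (r = 0.99). These classes come from 1 library. In somatic cells Wdr77 had 33.8 CPM, Cacybp 112 CPM and Coq7 69.6 CPM, above the 8.40 CPM of Tuba3a and 8.58 CPM of Tuba3b, and Dis3 had 8.40 CPM.

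The Tuba1 genes encode the α-tubulins of most somatic tissues, Tuba1a being prominent in developing neurons and Tuba1b general. Tuba1b had 1092 CPM (1049 to 1135) in Sertoli-like, 961 CPM (878 to 1050) in macrophage-like, 813 CPM (770 to 858) in stromal-like, 733 CPM (608 to 876) in the Xcl1 and Rgs5 cluster and 644 CPM (588 to 705) in peritubular myoid-like cells. The intervals of the Xcl1 and Rgs5 cluster overlapped those of both its neighbours in this order, those of Sertoli-like and macrophage-like cells just touched, and those of macrophage-like and stromal-like cells did not overlap. In germ cells Tuba1b was the leading Tuba1 gene at 158 CPM (147 to 168), a log2 ratio over somatic cells of −2.55 (−2.65 to −2.44), and from the SSC-like to the late differentiating-like class its level was 175, 133, 185 and 54.2 CPM.

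Tuba1a had 1106 CPM (1055 to 1158) in stromal-like cells, 733 CPM (608 to 876) in the Xcl1 and Rgs5 cluster, 521 CPM (471 to 576) in peritubular myoid-like cells, 415 CPM (389 to 442) in Sertoli-like cells and 94.9 CPM (70.2 to 126) in macrophage-like cells, and no neighbours in this order had overlapping intervals. Tuba1a was the largest single isoform of stromal-like cells, with 36.1% (34.8 to 37.5) of their tubulin UMIs, and held 4.28% in macrophage-like cells. In the 4 germ cell classes it lay between 17.2 and 24.7 CPM on 7 to 53 UMIs, with overlapping intervals, and the log2 ratio of germ over somatic cells was −4.82 (−5.09 to −4.56).

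Tuba1c was the minor gene of the group and had its highest level in macrophage-like cells, at 242 CPM (202 to 289), followed by Sertoli-like cells at 131 CPM (117 to 147). Its level was 60.6 CPM in the Xcl1 and Rgs5 cluster, 13.5 CPM in peritubular myoid-like and 31.7 CPM in stromal-like cells. In macrophage-like cells, which had Tuba1c UMIs in 77.1% of the cells, it made up 18.5% (15.7 to 21.7) of α-tubulin UMIs, and 1 cell held 16.8% of them. In germ cells Tuba1c had 17.8 CPM on 99 UMIs.

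UMIs of the Tuba1 genes were also summed, which leaves out reads that were not assigned to a single gene. In this sum, Tuba1a, Tuba1b and Tuba1c had 197 CPM (186 to 209) in germ cells and 1634 CPM (1600.0 to 1669) in somatic cells. They held 6.98% (6.58 to 7.39) of the tubulin UMIs of germ cells and 57.4% (56.7 to 58.2) of those of somatic cells. The sum was 222 CPM in SSC-like cells, 163 CPM in the Neurog3 cluster, 227 CPM in early and 78.8 CPM in late differentiating-like cells. Somatic classes ranged from 1179 CPM in peritubular myoid-like to 1950.4 CPM in stromal-like cells, and each stood above all germ cell classes.

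**Figure D2:**
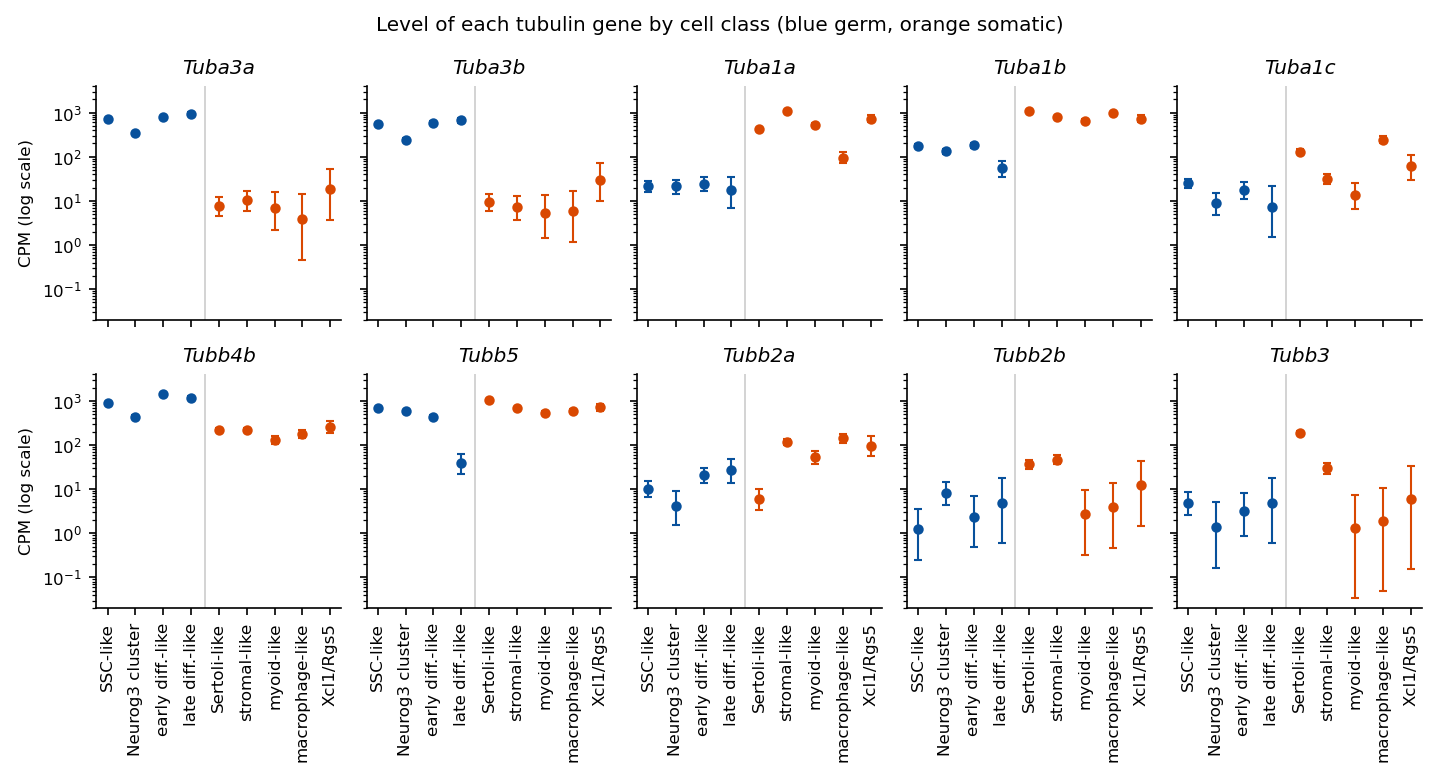
Level in CPM (log scale) of each of the 10 tubulin genes in the 4 germ cell classes (blue) and 5 somatic classes (orange) of 1 library; points are sums over the cells of a class and bars are 95% Poisson intervals for counting error. Tuba3a, Tuba3b and Tubb4b are higher in every germ cell class than in every somatic class, whereas Tubb5 lies between 437 and 1033 CPM in all classes but late differentiating-like cells, at 39.4 CPM.

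Tubb4b encodes a β-tubulin known for its place in cilia and sperm flagella, and Tubb5 a β-tubulin of proliferating cells. Tubb4b was the most abundant member in germ cells, with 925 CPM (900 to 951) and 32.7% of tubulin UMIs, against 205 CPM (193 to 218) and 7.22% in somatic cells, a log2 ratio of 2.17 (2.08 to 2.27). It had 917 CPM (879 to 955) in SSC-like, 433 CPM (400 to 468) in the Neurog3 cluster, 1427 CPM (1361 to 1494) in early differentiating-like and 1182 CPM (1078 to 1292) in late differentiating-like cells, and these intervals did not overlap. In early differentiating-like cells outside the shallow germ cell cluster, the level was within counting error of the late level, as given below. By class, somatic levels of Tubb4b ran from 131 CPM in peritubular myoid-like cells to 261 CPM in the Xcl1 and Rgs5 cluster. All of these were below the lowest germ cell class. Within the Sertoli-like class, however, the cluster of 45 cells described below had more Tubb4b than the Neurog3 cluster.

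Tubb5 was the member shared by both kinds of cells. It had 1033 CPM (992 to 1076) in Sertoli-like cells, and 721, 682, 583 and 542 CPM in the Xcl1 and Rgs5 cluster, stromal-like, macrophage-like and peritubular myoid-like cells. In germ cells it had 689 CPM (656 to 722) in SSC-like, 575 CPM (537 to 616) in the Neurog3 cluster, 437 CPM (401 to 475) in early differentiating-like and 39.4 CPM (22.5 to 64.0) in late differentiating-like cells. The late differentiating-like cells, with 16 UMIs of Tubb5, were the only class below 400 CPM. The log2 ratio of germ over somatic cells was −0.54 (−0.60 to −0.47), less than 2-fold, and became 0.00 (−0.16 to 0.16) with a limit of 5% rather than 10% on mitochondrial UMIs. The 5% limit left 67 germ cells, against 324 with the 10% limit, and did not resolve them into classes.

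Tubb2a, Tubb2b and Tubb3 are the β-tubulins best known from neurons, and Tubb3 is also known in Sertoli cells. Together they were 0.688% (0.565 to 0.830) of tubulin UMIs in germ cells and 6.45% (6.06 to 6.85) in somatic cells. Their levels differed between somatic classes, in part with the same classes high. Tubb3 had 188 CPM (170 to 206) in Sertoli-like cells, where 431 UMIs were spread over 70.6% of the cells and no cell held more than 10 UMIs. It had 30.5 CPM (22.6 to 40.2) in stromal-like cells and 1 UMI in each of the other 3 somatic classes, and 20 UMIs, or 3.60 CPM, in germ cells. In germ cells Tubb3 was at 1.92% of its Sertoli-like level, and the 7 Sertoli cell markers at up to 1.50%, so the germ cell level of Tubb3 was close to that of these markers. Stromal-like cells had Tubb3 at 16.2% of the Sertoli-like level, where the markers stood at 1.01% to 5.86%.

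Tubb2a was a gene of stromal-like and macrophage-like cells. Its level was 141 CPM (111 to 178) in macrophage-like cells, 116 CPM (100 to 134) in stromal-like cells, 96.9 CPM (55.4 to 157) in the Xcl1 and Rgs5 cluster and 52.7 CPM (37.5 to 72.0) in peritubular myoid-like cells, and the first 3 had overlapping intervals. Sertoli-like cells had 6.10 CPM (3.33 to 10.2) of Tubb2a on 14 UMIs, less than the 12.2 CPM (9.51 to 15.5) of germ cells, and the interval of the log2 ratio of germ over Sertoli-like cells was 0.16 to 1.95. In macrophage-like cells, Tubb2a was 15.6% of β-tubulin UMIs.

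Tubb2b was the rarest of the 10 genes, with 186 UMIs in all. Stromal-like cells had 76 UMIs, or 46.3 CPM (36.5 to 57.9), and Sertoli-like cells 84 UMIs, or 36.6 CPM (29.2 to 45.3), with overlapping intervals. Peritubular myoid-like, macrophage-like cells and the Xcl1 and Rgs5 cluster had 2 UMIs each. Of 20 UMIs in germ cells, 12 were in the Neurog3 cluster, at 8.30 CPM (4.29 to 14.5), in 10.1% of these cells and at most 3 in 1 cell. That is 22.7% of the Sertoli-like level, whereas the Sertoli cell markers in the Neurog3 cluster were at 0.429% to 1.80%.

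As Tubb2a, Tubb2b and Tubb3 are known from neurons, genes of neurons and glia were read beside them. In stromal-like cells, Elavl3, Snap25 and Sox10 were at 0, and Elavl4, Stmn2, Gap43 and Syt1 were between 0.609 CPM, on 1 UMI of Elavl4, and 11.6 CPM, on 19 UMIs of Syt1, while S100b had 320 CPM (293 to 348). In Sertoli-like cells, Snap25, Syt1 and Stmn2 were at 0, and Elavl3, Elavl4, Gap43, Sox10 and S100b had 1 to 11 UMIs. The neuronal genes among them were thus at or near 0 in both classes, with Syt1 in stromal-like cells the highest. Their part in the levels of Tubb2a, Tubb2b and Tubb3 was not tested.

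By the same correlation over classes, Tubb3 was most like Sh2d4a (r = 0.96), Defb19 (r = 0.96) and Inhbb (r = 0.96), the last encoding the inhibin βB subunit of Sertoli cells, and Tubb2b most like Sdf4 (r = 0.93), Cst8 (r = 0.92) and Taz (r = 0.91). In Sertoli-like cells these had 80.2 CPM of Sh2d4a, 2937 CPM of Defb19 and 170 CPM of Inhbb, against 6.09, 305 and 7.92 CPM in stromal-like cells.

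Among somatic classes, Sertoli-like over stromal-like cells gave a ratio of at least 2-fold higher for 2 of the 10 genes, Tuba1c and Tubb3, against 25.3% of all genes, and at least 2-fold lower for 2, Tuba1a and Tubb2a, against 11.7%. The log2 ratios were 2.05 (1.62 to 2.50) for Tuba1c, 2.62 (2.20 to 3.08) for Tubb3, −1.41 (−1.53 to −1.30) for Tuba1a and −4.25 (−5.15 to −3.47) for Tubb2a.

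Among germ cell classes, the Neurog3 cluster had the least tubulin, 1757 CPM (1689 to 1827) for the 10 genes, against 3101 CPM (3032 to 3172) in SSC-like cells, 3490.3 CPM (3388 to 3595) in early differentiating-like and 2935 CPM (2770 to 3106) in late differentiating-like cells. Red blood cell markers were at 7083 CPM in this cluster and at 94.5, 106 and 78.8 CPM in the other three classes. Without the barcode rich in hemoglobin the 10 genes had 1770 CPM (1702 to 1840) and the markers 98.3 CPM. Of the 10 genes, 6 were at least 2-fold lower in the Neurog3 cluster than in SSC-like cells, where 6.86% of all genes were, and 1, Tubb2b on 12 and 3 UMIs, was at least 2-fold higher, where 3.64% were. The log2 ratios were −1.08 (−1.22 to −0.93) for Tuba3a, −1.22 (−1.40 to −1.05) for Tuba3b, −1.08 (−1.21 to −0.95) for Tubb4b and −1.47 (−2.46 to −0.59) for Tuba1c. The other two, Tubb2a on 6 and 25 UMIs and Tubb3 on 2 and 12 UMIs, had intervals that reached 0. Without that barcode the log2 ratios were −1.06 for Tuba3a, −1.21 for Tuba3b, −1.08 for Tubb4b and −1.46 for Tuba1c. Tubb5 and Tuba1b lay nearer to their SSC-like level, with log2 ratios of −0.26 (−0.38 to −0.14) and −0.40 (−0.66 to −0.15), and Tubb5 was the largest isoform of the Neurog3 cluster, at 32.7% (30.9 to 34.6) of tubulin UMIs against 22.2% (21.3 to 23.2) in SSC-like cells. Tuba1a, Tuba1c, Tuba3a, Tuba3b, Tubb2a, Tubb4b and Tubb5 were among the 899 variable genes that clustered the germ cells. The counts of genes past 2-fold are thus not independent of the classes. Levels in the Neurog3 cluster were not recomputed from clusters made without tubulin genes.

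In early and late differentiating-like cells summed, 2 genes were at least 2-fold above SSC-like cells, Tubb2a and Tubb2b, against 7.76% of all genes, and 1 was at least 2-fold below, Tubb5, against 9.39%. Tubb2a had 37 UMIs in differentiating-like and 25 in SSC-like cells, a log2 ratio of 1.12 (0.35 to 1.91), and Tubb2b had 5 and 3 UMIs, with an interval that included 0. The log2 ratio of Tubb5 was −1.02 (−1.16 to −0.88), near the limit of 2-fold, and without a limit on mitochondrial UMIs it was −0.75. Tubb4b was higher by a log2 ratio of 0.58 (0.49 to 0.66), and Tuba3a and Tuba3b by 0.21 and 0.15. Without the shallow germ cell cluster these were 0.02 and 0.01, and in the deeper early differentiating-like cells alone the log2 ratio over SSC-like cells was −0.20 (−0.33 to −0.06) for Tuba3a and −0.16 (−0.32 to −0.01) for Tuba3b. In those deeper cells alone, Tubb2a did not reach 2-fold above SSC-like cells.

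Late differentiating-like cells had less Tubb5 and Tuba1b, the members most abundant in somatic cells, than early ones. At least 2-fold lower in the late class were 3 genes, Tubb5, Tuba1b and Tuba1c, against 18.6% of all genes, and 1 was at least 2-fold higher, Tubb2b on 2 and 3 UMIs, against 11.8%. The log2 ratios were −3.47 (−4.29 to −2.76) for Tubb5, on 16 and 549 UMIs, −1.77 (−2.47 to −1.14) for Tuba1b, on 22 and 232 UMIs, and −1.24 (−3.63 to 0.49) for Tuba1c, on 3 and 22 UMIs. Tubb4b, at −0.27 (−0.42 to −0.13), and Tuba3a, at 0.24 (0.07 to 0.41), were within 2-fold. With only the early cells outside the shallow cluster, the log2 ratio was 0.03 (−0.12 to 0.19) for Tubb4b and 0.59 (0.40 to 0.77) for Tuba3a. In late differentiating-like cells the Tuba3 pair held 54.4% and Tubb4b 40.3% of the tubulin UMIs, and the α-tubulin share was 57.1%, against 45.9% in the early class.

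**Figure D3:**
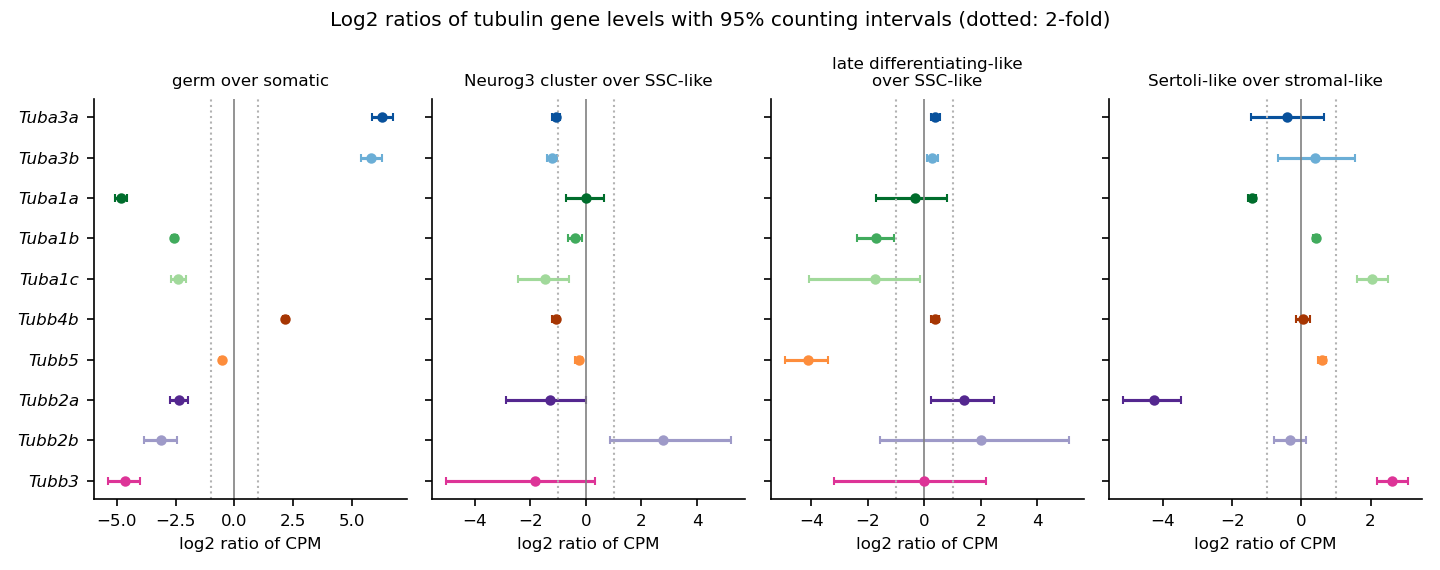
Log2 ratio of CPM for each tubulin gene in 4 comparisons of cell classes of 1 library, with exact 95% intervals for counting error; dotted lines mark 2-fold and the solid line no difference. Tubb5 lies near 0 between germ and somatic cells, at −0.54, and is the gene farthest below 0 in late differentiating-like over SSC-like cells, at −4.13.

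The shallow germ cell cluster bore on the level of the early differentiating-like class more than on its make-up. Its 51 early differentiating-like cells had 6150 CPM (5852 to 6459) for the 10 genes, against 2799.8 CPM (2697 to 2906) in the 50 deeper cells of the class, whose median depth was 20269 UMIs. The share of Tubb4b was 40.2% in the shallow and 41.3% in the deeper cells, that of Tubb5 13.7% and 11.8%, and that of the Tuba3 pair 39.0% and 39.6%, all with overlapping intervals. With only the deeper cells, the log2 ratio of late over early differentiating-like cells was −3.07 (−3.90 to −2.35) for Tubb5 and −1.49 (−2.21 to −0.84) for Tuba1b, and that of deeper early differentiating-like over SSC-like cells was −1.06 (−1.23 to −0.88) for Tubb5 and 0.33 (0.23 to 0.44) for Tubb4b.

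In single cells with at least 20 UMIs of the α family, the share of Tuba3a and Tuba3b separated the 2 kinds of cells without overlap: it was at least 58.3% in 167 germ cells, with a median of 86.4%, and at most 8.70% in 137 somatic cells, with a median of 0%. The share of Tubb4b in β-tubulin UMIs did overlap, with a lowest value of 17.2% and a median of 62.3% in 195 germ cells, and a highest value of 70.8% and a median of 17.2% in 87 somatic cells. By class, the median share of Tubb4b was 56.1% in 93 SSC-like, 45.5% in 35 cells of the Neurog3 cluster, 77.1% in 55 early differentiating-like and 95.5% in 12 late differentiating-like cells. The share of Tubb5 ran opposite, with medians of 42.9%, 54.5%, 21.7% and 1.35%, and its highest value among the 12 late differentiating-like cells, 6.25%, was below the lowest in SSC-like cells, 18.4%. Cells under 20 UMIs of the family were left out, which removed more of the shallow cells. This kept 167 of 324 germ and 137 of 596 somatic cells for the α family. For the β family it kept 195 and 87. Tuba3a, Tuba3b and Tubb4b were among the variable genes that clustered all cells. The separation of germ and somatic cells by these shares is thus not independent of the classes.

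**Figure D4:**
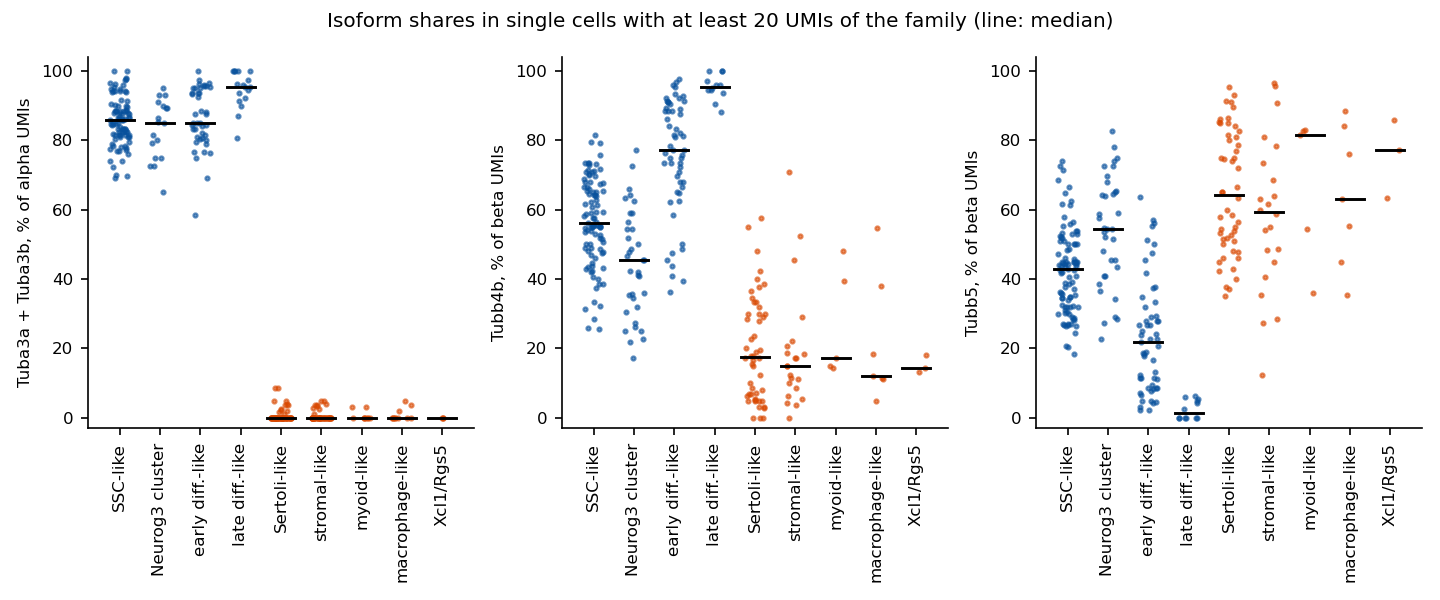
Share (%) of Tuba3a plus Tuba3b in α-tubulin UMIs, and of Tubb4b and Tubb5 in β-tubulin UMIs, in single cells of 1 library with at least 20 UMIs of that family; each point is a cell (blue germ, orange somatic), the line is the median, and points are spread sideways at random. The germ and somatic points do not overlap for Tuba3a plus Tuba3b, and overlap for Tubb4b and Tubb5.

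Because the spindle is built of tubulin, 20 mitosis genes such as Mki67, Cdk1 and Plk1 were read beside the isoforms. Their summed level was 712 CPM in the Neurog3 cluster (716 CPM without the barcode rich in hemoglobin), while the SSC-like, early and late differentiating-like classes had 2473, 2462 and 3050.0 CPM, so the class with the least tubulin was also that with the lowest mitosis genes among germ cells. Sertoli-like cells fell into 3 clusters, of 132, 78 and 45 cells, with 206, 448 and 5002 CPM of mitosis genes. In the cluster of 45 cells, 2 genes were at least 2-fold above the cluster of 132, against 8.63% of all genes, and 0 were at least 2-fold below, against 8.59%.

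These 2 were Tubb4b, at 663 CPM (591 to 741) against 103 CPM (85.1 to 123) and a log2 ratio of 2.69 (2.38 to 3.01), and Tuba1c, at 249 CPM (206 to 299) against 107 CPM (89.1 to 128). Tubb4b was 14.1% (12.7 to 15.6) of tubulin UMIs in the cluster of 45, 4.19% in that of 132 and 3.92% in that of 78. Tubb3 kept to a like share in all 3 clusters, 5.08% to 6.55%. Over the 45 cells, the per-cell level of Tubb4b and the summed mitosis genes had a Spearman correlation of 0.46, Tubb5 0.44, Tuba1b 0.45, Tuba1c 0.43 and Tuba1a 0.04. In the clusters of 132 and 78 cells, the value for Tubb4b was 0.08 and 0.21. The cells of a cluster share 1 library, and the correlations are descriptions. Mitosis genes and tubulin were both higher in the cluster of 45 cells and both lower in the Neurog3 cluster. The cluster of 78 had more mitosis genes than that of 132, 448 against 206 CPM, and more tubulin, 3218 against 2457 CPM. The share of Tubb4b was not higher in the cluster of 78. Late differentiating-like cells had more mitosis genes than SSC-like cells, 3050 against 2473 CPM, but not more tubulin, 2935 against 3101 CPM. The part of mitosis genes in these differences was not tested.

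**Figure D5:**
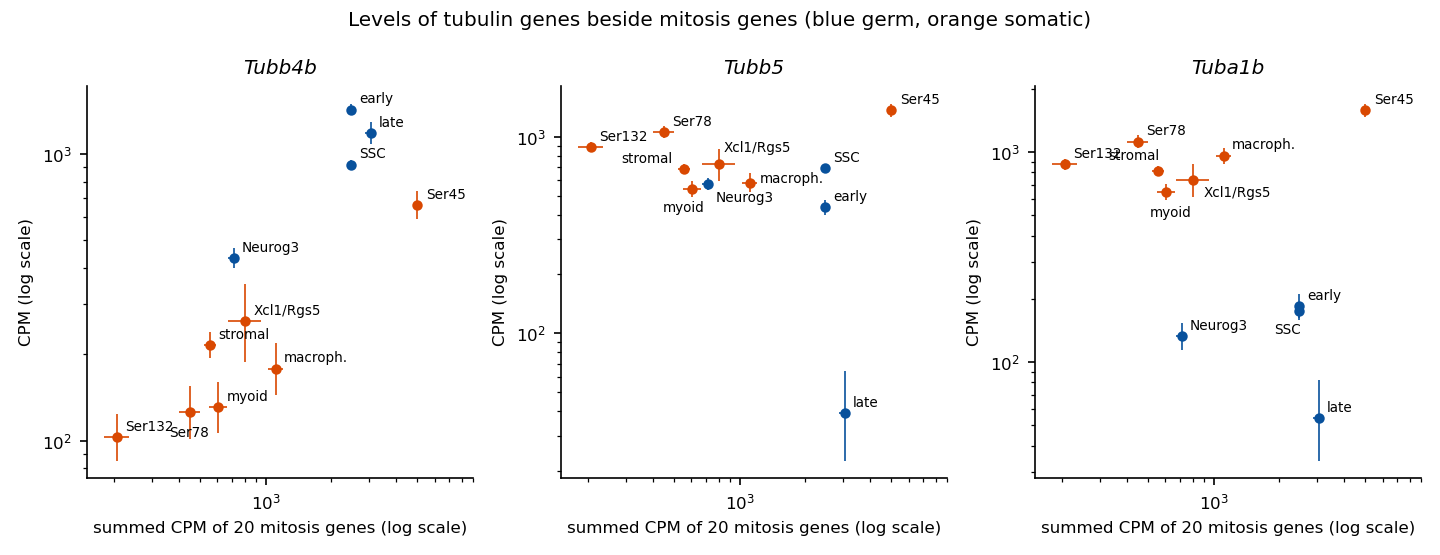
Level in CPM of Tubb4b, Tubb5 and Tuba1b (vertical, log scale) against the summed CPM of 20 mitosis genes (horizontal, log scale) in the 4 germ cell classes (blue), the 3 Sertoli-like clusters of 132, 78 and 45 cells (Ser132, Ser78, Ser45) and the 4 other somatic classes (orange) of 1 library; bars are 95% counting intervals. The Neurog3 cluster lies at 712 CPM of mitosis genes and 433 CPM of Tubb4b, and late differentiating-like cells at 3050.0 CPM of mitosis genes and 39.4 CPM of Tubb5.

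Of 6 further α and β genes, Tuba4a and Tubb6 had at least 100 UMIs. The 6 genes summed to 35.5 CPM in germ cells and 87.3 CPM in somatic cells. By somatic class their sum ran from 3.05 CPM in Sertoli-like cells to 182 CPM in the Xcl1 and Rgs5 cluster. Tuba4a was higher in germ cells, at 23.2 CPM (19.4 to 27.6) against 5.04 CPM (3.32 to 7.33), with 12.7 CPM in SSC-like and 41.4 CPM in early differentiating-like cells. Tubb6 was lower in germ cells, at 11.9 CPM against 80.2 CPM, and its levels were 165 CPM in peritubular myoid-like, 1.74 CPM in Sertoli-like and 159.6 CPM in stromal-like cells. In peritubular myoid-like and stromal-like cells Tubb6 was thus above Tubb2a, Tubb2b and Tubb3. The shares of tubulin UMIs given above leave these further genes out. Tubb4a had 12 UMIs in all, Tuba8 had 1, and Tubal3 and Tubb1 had 0. The γ-tubulins, which nucleate microtubules, were both higher in germ cells: Tubg1 had 94.0 CPM (86.1 to 102) against 26.1 CPM (22.0 to 30.8), and Tubg2 23.4 CPM (19.6 to 27.8) against 1.31 CPM (0.525 to 2.69). Tubg2 differed by class, with 94 UMIs in SSC-like, 30 in the Neurog3 cluster, 6 in early differentiating-like and 0 in late differentiating-like cells, the interval of the last reaching to 9.08 CPM.

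Genes that fold, modify and bind tubulin were read from lists by the same rule of 2-fold, germ over somatic cells, by which 23.6% of all genes were higher and 24.6% lower. Of 20 folding genes (the CCT chaperonin, prefoldin and tubulin cofactors), 8 were higher (all genes, 23.6%), 1 was lower (24.6%) and 11 were within 2-fold. Cct8 had 391 CPM against 112 CPM and Cct2 403 CPM against 131 CPM, whereas Tbca, the cofactor that holds free β-tubulin, had 201 CPM against 468 CPM. A γ-tubulin list held 12 genes, those of the γ-tubulin complex together with Tubd1 and Tube1, which encode δ-tubulin and ε-tubulin. Of these, 9 had at least 100 UMIs, and 3 were higher (all genes, 23.6%) and 1, Mzt2, lower (24.6%).

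Of 25 genes of tubulin modification, 13 had at least 100 UMIs, 4 of them higher in germ cells (all genes, 23.6%) and 1 lower (24.6%). Ttll7, a polyglutamylase that prefers β-tubulin, had 25.7 CPM (143 UMIs) against 2.99 CPM (16 UMIs), a log2 ratio of 3.11 (2.36 to 3.95), and Agbl3, a deglutamylase, 20.5 CPM against 6.53 CPM. Sirt2, a tubulin deacetylase, was lower, at 13.7 CPM against 61.4 CPM. Of 27 microtubule-binding genes, 18 had at least 100 UMIs, 2 higher (all genes, 23.6%), 4 lower (24.6%) and 12 within 2-fold. Map1s and Katna1 were the ones higher in germ cells, at log2 ratios of 1.59 and 1.32, and Map2 and Tppp3 were lower at −2.98 and −4.72, Tppp3 with 406 CPM in stromal-like cells. Of the 2 genes for autoregulation of tubulin mRNA, Scaper was higher in germ cells at 71.3 CPM against 21.1 CPM, and Ttc5 was at 19.3 CPM against 25.9 CPM. Of the 20 mitosis genes, 11 were higher (all genes, 23.6%) and 0 lower in germ cells (24.6%). The median log2 ratio over the genes with at least 100 UMIs was 0.65 for folding and 0.70 for the γ-tubulin list. It was 0.70 for modification, −0.04 for microtubule binding and 1.09 for mitosis, against 0.12 over all genes.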

How the data were processed

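The authors made the deposited UMI counts per gene and barcode from 10x Chromium v2 3′ libraries, aligned to mm10 with Cell Ranger 2.1.0, and Seurat is also named in the submitters' processing notes; how strand entered the counting is not given in the sources used here. Barcodes (2655 to 44915 UMIs, median 9115) were retained if they had 500 or more genes, a mitochondrial share below 10% and no doublet call by scrublet (scanpy 1.11.5; 4 doublets, 0.412%, under the rate of a working caller). Clustering used Seurat 5.3.0 in R 4.3.3 with 14 principal components and resolution 0.5, and germ cells were clustered again alone. Tubulin genes were among the variable genes of both clusterings, and clustering without them was 1 of the settings below. Cells of 3 pooled mice cannot be traced to a mouse, so no test was made. UMIs were summed per class, with exact Poisson intervals for CPM, exact binomial intervals for shares and conditional binomial intervals for ratios. On simulated germ over somatic counts of 27998 genes, 95.0% of intervals of 200 genes with altered levels held the true ratio. These counts were drawn with Poisson error only, so the run checked the computation and cannot speak to variation between cells or mice. A gene was called at 2-fold with at least 100 UMIs in all kept cells. Named were all members, and from each other list the genes farthest from 0 among those with enough UMIs. The members and lists were chosen with earlier results of these data known. GENCODE and RefSeq gave sequences and positions. Some sequences and genes of the lists are not reported here.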

Additional observations from a re-analysis of the deposited data

How the results depend on the processing

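The results were recomputed under 13 planned settings and 3 added after seeing the data, which left out the shallow germ cell cluster, the barcode richest in hemoglobin, or the Xcl1 and Rgs5 cluster. Of the values that answer a comparison, 81 moved by less than counting error or 1.5 times a count, 12 moved by more and 0 reversed. Reversal was recorded only for ratios whose main interval excluded 0. Counts and the ratio of summed tubulin CPM could therefore not be recorded as reversed, and that ratio changed sign in some settings. The log2 ratio of summed tubulin CPM, −0.01, became 0.77 with a 5% mitochondrial limit, 0.051 with germ cells taken by a Ddx4 or Dazl UMI, 0.26 with cells weighted equally, 0.074 with other denominators, 0.12 with cells thinned to 5000 UMIs and −0.11 without the shallow germ cell cluster. The log2 ratio of the Tuba3a plus Tuba3b share, 6.07, was 5.68 with doublets kept and 5.50 with cells weighted equally, and that of Tubb2a, Tubb2b and Tubb3, −3.23, was −2.06 with germ cells by a Ddx4 or Dazl UMI and −2.88 with equal weights. The count of 3 genes at least 2-fold different between differentiating-like and SSC-like cells was 1 without a mitochondrial limit and 1 with a higher minimum of genes per cell. Of single genes, Tubb5 in germ over somatic cells went from −0.54 to 0.0018 with the 5% limit, and Tuba1c in differentiating-like over SSC-like cells from −0.73 to 1.08 at resolution 1.2. At that resolution 45 germ cells were named SSC, and a cluster of 61 with Tuba1c among its leading genes was named progenitor. The causes were not tested. The 5% limit, resolution 0.3 and Ddx4 or Dazl settings gave no value for differentiating-like cells. The 5% limit left 67 germ cells in 1 cluster, at a median depth of 5316 UMIs. Its values thus compare fewer and shallower germ cells than the 324 of the main setting. Thinning to 5000 UMIs left out the cells below that depth. Tubb2b and Tubb3 in germ cells rest on 20 UMIs each. No paired analysis was possible because there was 1 library.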
